A study of Mus musculus with 6 samples.

Results

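Induced and untreated embryoid bodies were compared on day 4 of differentiation, the day on which genes of mesoderm come on in this culture. The comparison used the 2 day 4 arrays of 6 arrays in all, chosen by their labels and not by their values. The cells were A2.miR200c, a single mouse ES cell line in which doxycycline switches on an inserted miR-200c/miR-141 cluster. They were grown in suspension as embryoid bodies, and RNA was taken on days 3, 4 and 5. Untreated cultures received no doxycycline, and induced cultures received it at 500 ng/mL on day 2 and, for the later collections, again on day 4. Both therefore carried the inducible cassette. Whether the second dose came before or after the day 4 collection is not stated in the sources used here. Each treatment had 1 array on each day. A day 4 difference thus carries no replicate error, no test was made, and precision is limited by how few arrays there were. No doxycycline-treated line without the microRNAs was on these arrays, so an effect of doxycycline itself and an effect of the microRNAs cannot be told apart. Before differentiation the cells had been kept on mouse fibroblast feeders with a single feeder-free passage.

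During gastrulation, epiblast cells that enter the primitive streak lose epithelial contacts, move as mesenchyme and become mesoderm or endoderm, an epithelial-to-mesenchymal transition (EMT). Wnt, BMP and Nodal signals start this step, and differentiating embryoid bodies pass through a similar series of states. MicroRNAs of the miR-200 family are made in epithelial and pluripotent cells and bind messenger RNAs through their seed, with Zeb1 and Zeb2, repressors of epithelial genes, as their best known targets. The study asked how keeping these microRNAs on affects the passage of ES cells toward germ layers.

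The induced pair and the other mouse microRNAs that share a seed with either of them are shown because these seeds define what the treatment added. Mature sequences were taken from RefSeq (GRCm38.p6), all on the minus strand, and capitals mark the seed. The first pair below was induced, and the others lie in a separate cluster on another chromosome.
miR-200c-3p (chr6:124718324-124718346): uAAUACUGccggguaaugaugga
miR-141-3p (chr6:124717917-124717938): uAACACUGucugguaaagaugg
miR-200b-3p (chr4:156055685-156055706): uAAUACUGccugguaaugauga
miR-429-3p (chr4:156053916-156053937): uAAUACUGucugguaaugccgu
miR-200a-3p (chr4:156054911-156054932): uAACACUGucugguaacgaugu
The induced pair differs in its seed by 1 substitution, U4C, with miR-200c first and positions counted from the mature 5′ end. miR-200b and miR-429 share the seed of miR-200c, and miR-200a shares that of miR-141. The endogenous miR-200c and miR-141 genes lie between the protein-coding genes Phb2 and Ptpn6 and overlap neither. The arrays do not measure mature microRNAs, so their induction was not checked here.

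Values were model-based intensities of the authors, and each gene was followed by 1 probe set. Differences are given as induced minus untreated on the log2(intensity + 50) scale, and folds come from the same scale, which damps them at low intensity. Of 18193 genes with a probe set of their own, 9997 were bright enough on some array to be counted. A background of 36.8 was set at the 95th percentile over 77 genes of smell, pheromone and taste receptors. Array medians were 34.5 to 36.9, and 48.8 to 50.1% of probe sets exceeded the background. Over the genes counted the 2 day 4 arrays correlated at r = 0.990, between day 3 (r = 0.996) and day 5 (r = 0.973), with genes that are not independent replicates. RNA came from whole cultures, so fewer cells of a type and less RNA per cell cannot be told apart.

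Past 2-fold, more genes were lower than higher with induction on day 4. At least 2-fold lower in the induced culture were 50 genes (0.500% of the genes counted), and 8 (0.0800%) were at least 2-fold higher. The lower genes were led by Kdr, the VEGF receptor that marks mesoderm progenitors, the secreted Wnt binder Frzb and the Nodal coreceptor gene Cfc1. Their median difference was -1.30, or 2.45-fold, against 0.02 over all genes counted, where the SD was 0.23 and 45.9% lay below zero. The last gene inside the limit was Vstm2b (254 untreated and 102 induced), and the first outside was Cdh2 (5238 untreated and 2608 induced, -0.99), which encodes N-cadherin. On the other side Myo5b (45.1 untreated and 140.2 induced) was the last inside and Rgl3 (45.2 untreated and 137 induced, 0.98) the first outside. With all probe sets of a gene averaged, 30 genes were lower, 29 of them among the 50, and 4 were higher. The balance depends on the limit and the scale, with 139 lower and 103 higher genes at 1.5-fold, and 75 and 21 with a pseudocount of 16.

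**Figure D1:**
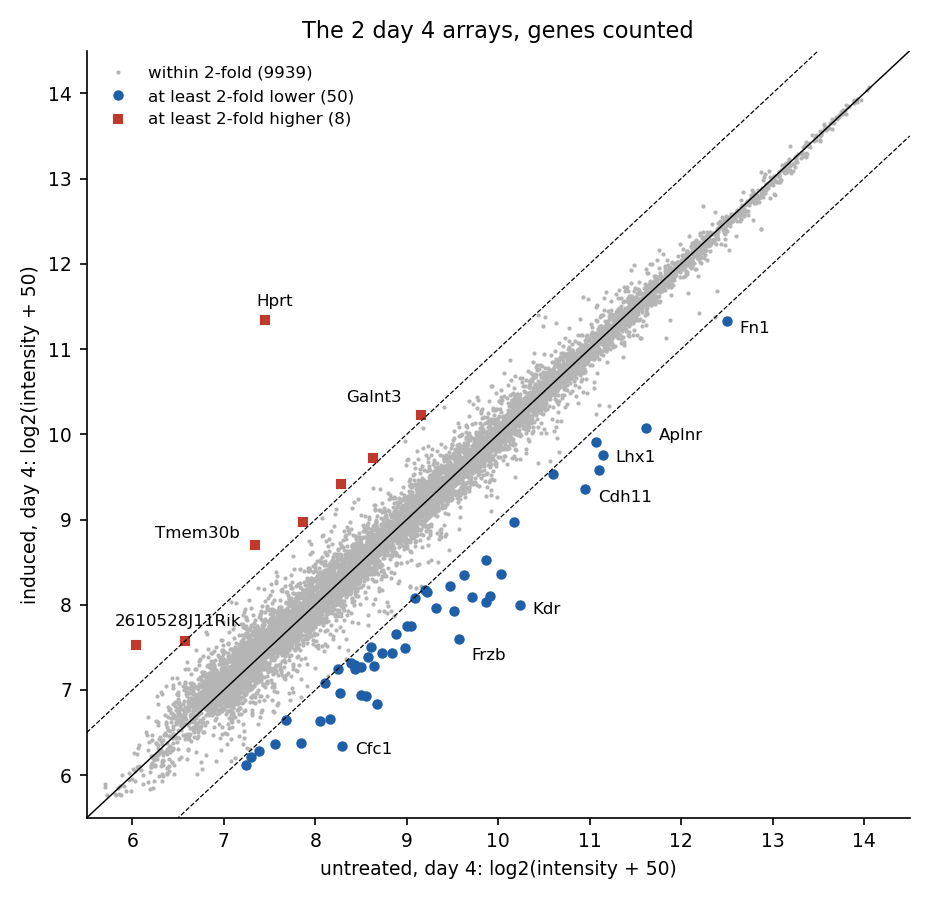
Each point is a gene, with its untreated day 4 value on the horizontal axis and its induced day 4 value on the vertical axis, both log2(intensity + 50) from 1 array each; the solid line is equality and the dashed lines are 2-fold. The 50 lower genes (blue circles) reach from Hoxb2 at the lowest untreated intensity to Fn1 at the highest, and Hprt stands far above the other 7 higher genes (red squares).

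Hprt, whose enzyme recycles purines, had the largest difference of any gene counted. It measured 234, 125 and 102 in the untreated culture and 1671, 2539 and 2977 in the induced one across the 3 days. The induced value was the higher one on each day, by 3.89 on day 4, or 14.81-fold. As background, the doxycycline-responsive cassette of A2lox cells, from which this line was made, sits beside Hprt on the X chromosome. Whether the difference comes from that position was not tested. The 8 other housekeeping genes counted had day 4 differences from -0.06 (Tbp, 532 untreated and 509 induced) to 0.06 (Pgk1, 10521 untreated and 10952 induced), with a median of 0.00.

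Receptors and coreceptors made up 9 of the 50 lower genes, grouped by role after the values were seen. Roles were assigned to these 50 genes alone, so no share over all genes counted can stand beside the role counts. Kdr (Entrez Gene 16542) measured 58.1, 1159.95 and 3158 untreated against 48.6, 205 and 1763 induced, in day order. Its 2 day 3 values were both low, and on day 4 the untreated culture was 4.74-fold higher (difference -2.25). Aplnr, the receptor for apelin and Elabela that early mesoderm carries, measured 19.6, 3089 and 6124 without induction on days 3, 4 and 5, and 17.9, 1032 and 5860.4 with it. The difference on day 4 was -1.54, and on day 5 the values stood within 0.06 of each other on the log2 scale. Nrp1, a coreceptor for VEGF and semaphorins, measured 22.8, 357 and 3701 in the untreated culture and 18.8, 64.1 and 1515 in the induced one across the 3 days. Both day 3 values were below background, and the induced culture was lower on day 4 (-1.84) and on day 5 (-1.26). Its relative Nrp2 measured 226 untreated and 85.7 induced on day 4 (-1.02).

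Pdgfra, the PDGF receptor of paraxial and other mesoderm, measured 40.3, 591 and 1329.7 untreated against 37.8, 199 and 698 induced, in day order. The day 4 difference was -1.36, with the day 3 pair level. Cxcr4, the chemokine receptor of migrating mesoderm and endoderm, measured 26.3, 216 and 964 without induction on days 3, 4 and 5, and 22.2, 49.6 and 699.6 with it, a day 4 difference of -1.42. Cfc1, whose product Cryptic helps Nodal bind its receptors, measured 16.5, 264 and 2431 in the untreated culture and 24.9, 31.4 and 1540.00 in the induced one across the 3 days. The induced value on day 4 was below background and the untreated value was not (-1.95), and by day 5 both were far above it. Plxna2, a semaphorin receptor (-1.29), and Gas1, a coreceptor for hedgehog (-1.16), were lower on day 4 and level on day 5 (0.02 and 0.09).

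Over the list of mesoderm surface receptors and adhesion molecules, 7 of the 12 members counted were at least 2-fold lower on day 4. Of all genes counted, 0.500% were. None of the 12 was at least 2-fold higher, and the median was -1.19. On day 3, 8 of the 12 lay below zero, against 48.2% of all genes counted. On day 5 the list's median was -0.85, and 4 members were at least 2-fold lower, against 1.52% of all genes counted. Pdgfrb, the second PDGF receptor, measured 206 untreated and 103 induced on day 4 (-0.75) and Flt1, another VEGF receptor, 275 untreated and 185 induced (-0.47). The members above zero were Fgfr1, an FGF receptor of epiblast and mesoderm (0.20), and the integrin subunit gene Itga4 (0.01), below background on both day 4 arrays. With a pseudocount of 100 the list's median was -1.03 and with 16 it was -1.43.

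Transcription factor genes were 12 of the 50, with a median day 4 difference of -1.28. Genes of other or mixed roles were 13. Mesp1, a basic helix-loop-helix factor of the first mesoderm to leave the streak, measured 38.1, 684 and 709 untreated against 32.7, 193 and 660.4 induced, in day order. The untreated culture had reached nearly its day 5 level by day 4, the induced one was 3.02-fold below it (-1.59), and the day 5 values were close (-0.10). Lhx1, a LIM homeobox gene of streak and organizer, measured 23.0, 2208 and 1307 without induction on days 3, 4 and 5, and 23.7, 813 and 2502 with it. Its day 4 difference was -1.39 and its day 5 difference 0.91, so the order of the 2 cultures was opposite on the 2 days. The transcript from the other strand beside it, Lhx1os, had the same signs (-1.11 and 0.75).

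Tbx3, a T-box gene used in ES cells and again in lateral mesoderm, measured 44.1, 236 and 1239.8 in the untreated culture and 26.1, 51.4 and 609 in the induced one across the 3 days. It was lower in the induced culture on day 4 (-1.50) and on day 5 (-0.97). Etv2, the ETS factor that starts blood and vessel development, measured 149, 374 and 398 untreated against 116, 123 and 152 induced, in day order. Its induced values differed little across the 3 days, and the untreated culture was higher on day 4 (2.46-fold) and day 5 (2.22-fold). Isl1, a LIM homeobox gene of heart progenitors, measured 80.3, 465 and 664 without induction on days 3, 4 and 5, and 75.1, 166 and 512 with it, with a day 4 difference of -1.25. Six2, a homeobox gene, stood at 406 untreated and 122 induced on day 4 (-1.40).

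The homeobox genes Msx1 (-1.36 on day 4, -1.03 on day 5) and Msx2 (-1.19 and -1.24), both BMP targets, were lower on both days. Hoxb2, an anterior Hox gene, measured 24.7, 101 and 1128 in the untreated culture and 15.4, 19.8 and 111 in the induced one across the 3 days. The induced day 4 value was below background (-1.12), and its day 5 difference was the largest downward one among the 50 (-2.87). Meis2, a Hox cofactor, stood at -1.10 on day 4 and -0.80 on day 5. Sox17, an HMG-box factor of endoderm, measured 169, 1502 and 2914 untreated against 185, 690.1 and 3875 induced, in day order. It was lower on day 4 (-1.07) and higher on day 5 (0.41). Gata6, a zinc finger factor of endoderm and heart, had 546 untreated and 235 induced on day 4 (-1.06) and differed by 0.12 on day 5.

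**Figure D2:**
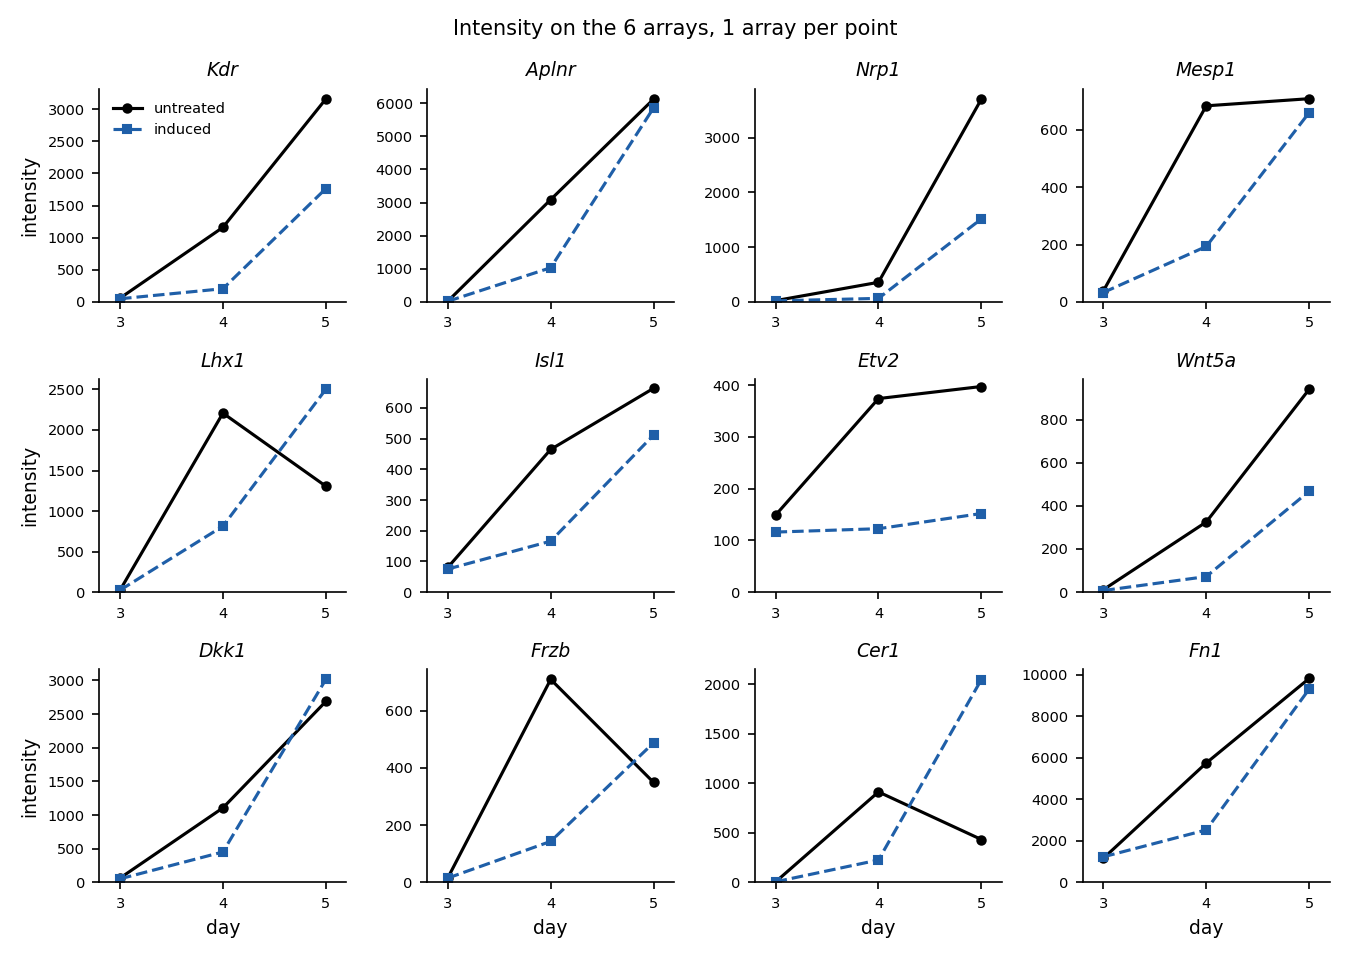
Intensity (vertical axes, linear, starting at 0) against day (horizontal axes) for 12 of the 50 lower genes; each point is 1 array, black circles untreated and blue squares induced. The pairs start together on day 3 and stand apart on day 4, and on day 5 they meet (Aplnr, Mesp1, Fn1), stay apart (Nrp1, Etv2, Wnt5a) or cross (Lhx1, Frzb, Cer1).

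Of the 11 streak and nascent mesoderm factors counted, all 11 lay below zero on day 4, against 45.9% of all genes counted. Their median was -0.58, and 2 (Mesp1 and Lhx1) were at least 2-fold lower, against 0.500% of all genes counted. Evx1, a homeobox gene of the posterior streak, measured 1465 untreated and 773 induced (-0.88). Mixl1, a homeobox gene of mesendoderm, measured 109.7, 3606 and 1714 without induction on days 3, 4 and 5, and 85.6, 2183 and 3373 with it. Both cultures had much higher values on day 4 than on day 3, the induced one lower by 0.71 on the log2 scale. Eomes, a T-box factor of the early streak, measured 3729 untreated and 2539 induced (-0.55) and differed by -0.58 already on day 3. Cdx2, a posterior homeobox gene, measured 98.6 untreated and 41.8 induced (-0.69). The remaining members were Gsc (-0.58), Mesp2 (-0.52), Sp5 (-0.49), Snai1 (-0.47) and Foxa2 (-0.13), the last an endoderm factor at 995 untreated and 904 induced. On day 5 most of the list was on the other side, with 9 of 11 above zero and a median of 0.64. Of all genes counted, 46.7% lay below zero on that day. The members below zero on day 5 were Cdx2 (485 untreated and 66.4 induced, -2.20) and Mesp1 (-0.10). Tbx6, Msgn1, Cdx1 and Cdx4 were too dim on all 6 arrays to be counted. T, the gene of Brachyury, was on the list but matched no probe set with a single symbol, so it was not read.

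All 11 lateral and cardiac factors counted lay below zero as well, 5 of them at least 2-fold, against 0.500% of all genes counted. Their median was -0.69 on day 4 and -1.03 on day 5. Beyond Tbx3, Msx1, Msx2, Isl1 and Gata6, they were Tbx20 (-0.69), a T-box gene of the heart, Gata4 (-0.44), Hand2 (-0.32), Foxf1 (-0.30), Hand1 (-0.10) and Smarcd3 (-0.02). Tbx20, Hand2 and Foxf1 were dim on day 4. Foxf1, a forkhead factor of lateral mesoderm, measured 13.0, 28.1 and 1172 in the untreated culture and 4.54, 13.5 and 132 in the induced one across the 3 days, below background on both day 4 arrays and apart by -2.75 on day 5. The list's median depends on the scale, -1.16 with a pseudocount of 16 and -0.43 with 100, and was -0.30 over the mean of all probe sets. Nkx2-5, Tbx5, Mef2c and Gata5 were not counted.

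The blood and endothelial genes counted stood further apart on day 5 than on day 4. Of 10 counted, 1 was at least 2-fold lower, Etv2, and the median was -0.24. That median was -0.39 with a pseudocount of 16, -0.079 over the mean of all probe sets and -0.55 with a filter on the day 4 mean. Lmo2, a cofactor of blood-forming cells, measured 191 untreated and 82.1 induced (-0.86). Tal1, a hemogenic endothelium factor, measured 20.0, 24.9 and 389 untreated against 23.2, 7.52 and 30.4 induced, in day order. Both day 4 values were below background, and the cultures differed by -2.45 on day 5. The embryonic globin gene Hbb-bh1 measured 7.12, 7.32 and 1600.4 without induction on days 3, 4 and 5, and 4.20, 7.71 and 40.0 with it, level on day 4 and far apart on day 5. On day 5 the list's median was -1.78, with 8 of 10 at least 2-fold lower, against 1.52% of all genes counted. Tal1, Hbb-bh1, Fli1, Cdh5, Gata2 and Runx1 were bright enough to be counted only on the untreated day 5 array. Those members could therefore lie only below zero on day 5, so the day 5 count partly follows from the filter. Of the 20 members measured, Gata1, Erg, Sox18, Pecam1, Tek, Klf1, Hba-x, Hbb-y, Lyl1 and Emcn were not counted. Of the paraxial list 3 of the 13 measured were counted, and Dll3, a Notch pathway ligand, was the lower one (662 untreated and 248 induced, -1.25), beside its relative Dll1 (-0.52) and Tcf15 (0.05), a factor of the somites.

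Secreted ligands and their modulators made up another 9 of the 50, with the lowest role-group median (-1.49). Frzb measured 15.4, 709.6 and 349 in the untreated culture and 14.9, 143 and 488 in the induced one across the 3 days. On day 3 both values were below background, on day 4 the untreated one was 3.93-fold higher (-1.98), and on day 5 the induced one was the higher (0.43). Cer1, a secreted antagonist of Nodal, BMP and Wnt made by anterior endoderm, measured 4.26, 913 and 432 untreated against 5.48, 226 and 2046 induced, in day order. It was the single gene of the 50 that was at least 2-fold higher on day 5 (-1.80 on day 4, 2.12 on day 5). Wnt5a, a Wnt ligand that acts mainly outside the beta-catenin route, measured 11.1, 325 and 940.3 without induction on days 3, 4 and 5, and 7.26, 72.0 and 468 with it, with differences of -1.62 and -0.94 on days 4 and 5.

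Dkk1, a Wnt antagonist that Wnt signals also switch on, measured 62.8, 1106 and 2688 in the untreated culture and 51.8, 451 and 3015 in the induced one across the 3 days. The day 4 difference was -1.21 and the day 5 values were nearly level (0.16). Rspo3, which strengthens Wnt signals, stood at 886 untreated and 319 induced on day 4 (-1.34). Bmp2, a BMP ligand, measured 27.0, 297 and 1609 untreated against 25.5, 102 and 677 induced, in day order, and the difference was of like size on day 4 (-1.20) and day 5 (-1.19). Bmper, a secreted BMP-binding protein, measured 455 untreated and 129.7 induced on day 4 (-1.49). Tgfb2, a TGF-beta ligand, measured 286 untreated and 109 induced (-1.08), and Igfbp4, which binds insulin-like growth factors, 787 untreated and 222 induced (-1.62).

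The signalling lists differed from one another in their counts, which depend on the genes each list held. Over all genes counted, 0.500% were at least 2-fold lower on day 4 and 45.9% lay below zero. Of 13 Wnt genes, 3 were at least 2-fold lower (Wnt5a, Rspo3, Dkk1), 12 lay below zero and the median was -0.47, or -0.28 over the mean of all probe sets. Other target genes were within 2-fold, with Axin2, a feedback inhibitor, at 480.5 untreated and 317 induced (-0.53), Sp5 at 1955 untreated and 1378 induced (-0.49) and Lef1 at 1118 untreated and 791 induced (-0.47). Lef1 already stood at -0.42 on day 3. The Wnt list left out the lower genes Frzb (-1.98) and Dact1 (-1.02). Of 14 BMP genes, 3 were lower (Bmp2, Msx1, Msx2), 10 lay below zero and the median was -0.27. Bmper (-1.49) was not on that list. Bmp4, the ligand that patterns mesoderm, measured 143, 656 and 2386 without induction on days 3, 4 and 5, and 179, 350.4 and 1246 with it, a day 4 difference of -0.82. The inhibitor gene Bambi stood at -0.65, and the Id genes between -0.25 (Id1) and 0.36 (Id4).

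The list of Nodal genes had 1 lower member, Cer1, of 10 counted, and a median of 0.01. It left out the lower coreceptor gene Cfc1 (-1.95). Nodal itself measured 2219, 2352 and 444 in the untreated culture and 2217, 2765 and 2125 in the induced one across the 3 days. Its day 4 difference was 0.23 and its day 5 difference 2.14. Lefty1, a Nodal antagonist, stood at 0.46 and Lefty2 at 0.01 on day 4. Of 17 FGF genes none passed 2-fold, and the median was -0.02, from Fgf3 (-0.74) to the feedback gene Spry1 (0.55). Fgf8, the FGF of the streak, measured 1066 untreated and 974 induced (-0.12). Of 5 retinoic acid genes, 1 was lower. Cyp26a1, whose enzyme breaks down retinoic acid, measured 64.1, 2147 and 2538 untreated against 45.9, 719 and 4128 induced, in day order, lower by 1.51 on day 4 and higher by 0.69 on day 5 on the log2 scale.

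Anterior streak and endoderm genes had 6 of 13 members at least 2-fold lower on day 4, against 0.500% of all genes counted. These 6 were Frzb, Cer1, Cxcr4, Dkk1, Sox17 and Gata6, and the list's median was -0.58. On day 5 none of the 13 was at least 2-fold lower, 6 were at least 2-fold higher, against 1.97% of all genes counted, and the median was 0.43. Gsc, an organizer homeobox gene, measured 13.6, 605 and 180.5 without induction on days 3, 4 and 5, and 16.3, 388 and 1012 with it, with differences of -0.58 on day 4 and 2.20 on day 5. Trh, a hormone gene used as an endoderm marker, stood above zero on both days (0.24 and 1.69). The list shares Cxcr4 with the receptors, Dkk1 with the Wnt genes and Cer1 with the Nodal genes, as Msx1 and Msx2 count for both BMP and lateral mesoderm, so these counts overlap.

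**Figure D3:**
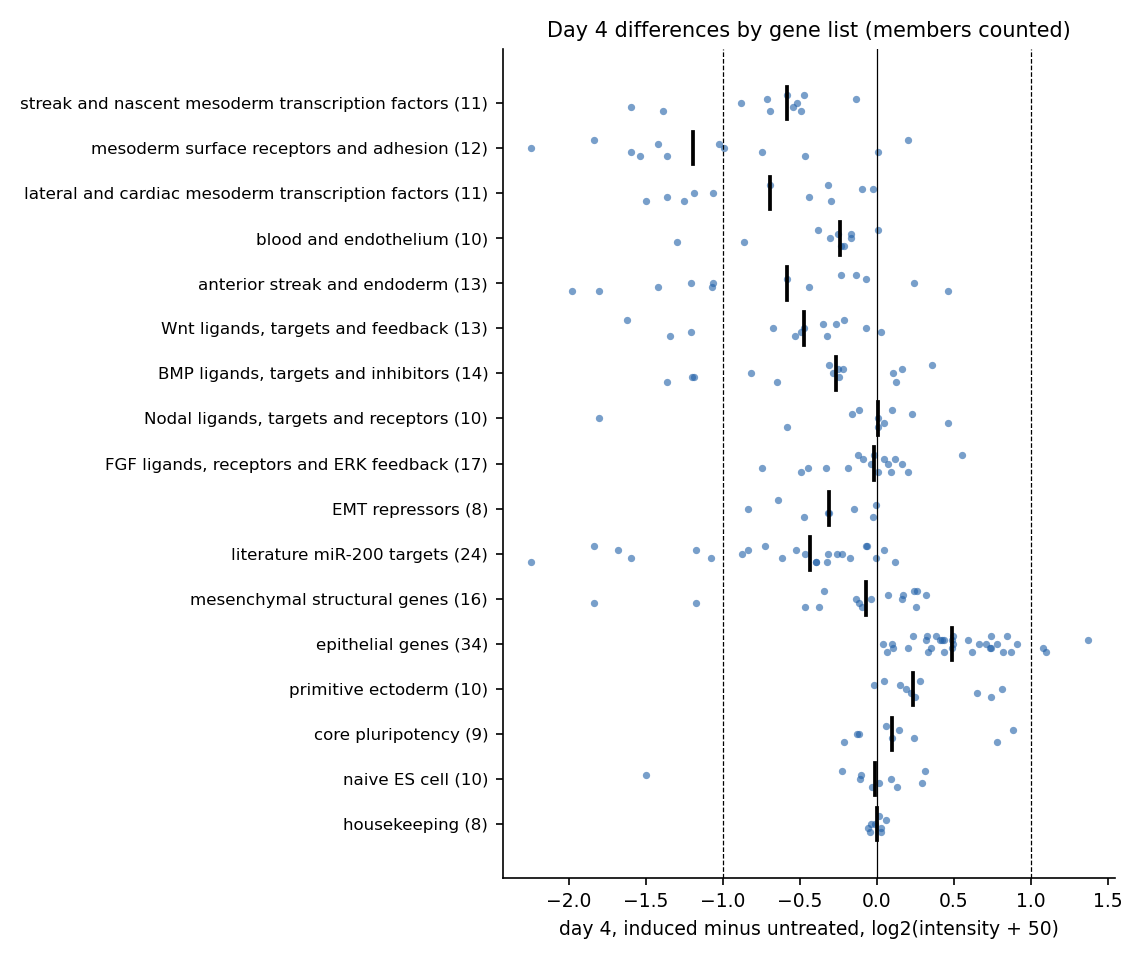
Day 4 differences, induced minus untreated on the log2(intensity + 50) scale (horizontal axis), of each member counted (blue points, spread vertically for sight) in 17 gene lists, with the number counted in brackets; black bars are list medians and dashed lines are 2-fold. Medians run from -1.19 for mesoderm surface receptors to 0.49 for epithelial genes, whose 34 members all lie above zero.

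Among adhesion and matrix genes, 4 of the 50 were lower. Cdh11, a cadherin of mesenchymal cells, measured 107, 1929.6 and 4014 in the untreated culture and 77.8, 606 and 1809.7 in the induced one across the 3 days. It was 3.02-fold lower on day 4 (-1.59) and stayed lower on day 5 (-1.13). Fn1, fibronectin, measured 1156, 5749.9 and 9826 untreated against 1228, 2526 and 9313 induced, in day order, with the day 4 values 2.25-fold apart (-1.17) and the other days level. Pcdh7, a protocadherin (-1.23), and Ncam1, a neural and mesodermal adhesion molecule (-1.03), completed the group. N-cadherin, Cdh2, measured 969, 5238 and 6003 without induction on days 3, 4 and 5, and 894, 2608 and 6653 with it, and E-cadherin, Cdh1, 7232, 7458 and 3963 in the untreated culture and 7725, 8596 and 7719.8 in the induced one across the 3 days. On day 4 the former differed by -0.99 and the latter by 0.20. Of 16 mesenchymal structural genes counted, 2 were at least 2-fold lower (Fn1 and Pmp22), and the median was -0.07. Vim, vimentin, stood at -0.47, while the basement membrane collagens Col4a1 and Col4a2 stood at 0.17 and 0.24.

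The other lower genes had mixed roles. Pmp22, a membrane protein known from myelin, measured 45.2, 883 and 5540.2 untreated against 28.2, 212 and 3068 induced, in day order, a day 4 difference of -1.83. Dlc1 measured 371, 999.8 and 1241 without induction on days 3, 4 and 5, and 288, 278 and 889 with it. The day 4 difference was -1.68, and the induced values of days 3 and 4 were close. Rgs5, a G protein regulator of vessel wall cells, measured 180.2 untreated and 33.2 induced on day 4 (-1.47), the induced value below background, and -1.61 on day 5. Klhl6 (-1.56), the bicarbonate transporter gene Slc4a4 (-1.23), the heparan sulfate enzyme gene Hs3st3b1 (-1.19), Asb4 (-1.08), Dact1 (-1.02), whose product binds Dishevelled, Grrp1 (-1.31) and Rftn1 (-1.01) were also on the list. Membrane-bound ligands numbered 3, with Efna3, an ephrin (738 untreated and 277 induced, -1.27), and Sema6d, a semaphorin (295 untreated and 106 induced, -1.14), beside Dll3. All 3 stood above zero on day 5.

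EMT repressors and reported miR-200 targets were read next. All 8 EMT repressors counted lay below zero on day 4, against 45.9% of all genes counted. None was 2-fold lower, and the median was -0.31. On day 3, 6 of the 8 lay below zero, against 48.2% of all genes counted. Nearest to zero on day 4 were Tcf3 (-0.15), Twist2 (-0.02, below background on both arrays) and Tcf4 (-0.008). Zeb2 measured 43.7, 97.6 and 237 in the untreated culture and 24.8, 32.7 and 55.9 in the induced one across the 3 days, and its induced day 4 value was below background (-0.84). Zeb1 measured 131, 256 and 403 untreated against 132, 196 and 169 induced, in day order, a difference of -0.31 on day 4 and -1.05 on day 5. Snai1, the Snail gene, measured 119 untreated and 72.3 induced (-0.47), Twist1 120.5 untreated and 59.2 induced (-0.64) and Snai2, Slug, 29.9 untreated and 14.6 induced (-0.31), with both Snai2 values below background.

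Of 24 literature targets of miR-200, 22 lay below zero and 6 were at least 2-fold lower on day 4 (Kdr, Nrp1, Dlc1, Cdh11, Fn1 and Tgfb2), with a median of -0.43. None of these 6 was 2-fold apart on day 3. On that day 14 of the 24 lay below zero, against 48.2% of all genes counted, with a median of -0.05. On day 5, 7 were at least 2-fold lower, against 1.52%. Without induction, 12 of the 24 were at least 2-fold higher on day 5 than on day 3, against 5.93% of all genes counted. The other targets differed by less than 2-fold. Cfl2, an actin-severing cofilin, measured 1686, 1568 and 1922 without induction on days 3, 4 and 5, and 941, 833 and 743 with it, lower in the induced culture on each day (-0.81, -0.87 and -1.31). Sec23a, a coat protein of secretory vesicles, measured 1215 untreated and 829 induced (-0.52) and stood at -0.47 on day 3. Jag1, a Notch ligand, stood at -0.73 on day 4 and 1.33 on day 5. Bmi1 (-0.39), Ets1 (-0.32) and Mapk14 (-0.26) lay below zero, Suz12 (0.12) and Msn (0.05) above. Over all genes counted, 45.9% lay below zero and 0.500% were at least 2-fold lower. Seed matches in the transcripts were not analysed here.

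Epithelial genes formed the opposite side of the comparison. All 34 counted lay above zero on day 4, while 45.9% of all genes counted lay below it. Their median was 0.49, and 3 were at least 2-fold higher, against 0.0800% of all genes counted. Tmem30b, a subunit of a lipid flippase, measured 319, 112 and 40.8 in the untreated culture and 418, 367 and 278 in the induced one across the 3 days. The untreated values declined with time while the induced ones stayed closer together, and the day 4 difference was 1.37. Galnt3, an enzyme that starts O-glycosylation, measured 775, 520.2 and 116 untreated against 1116, 1152 and 817 induced, in day order, higher by 1.08 on day 4 and by 2.38 on day 5. Ap1m2, a clathrin adaptor subunit of epithelial cells, measured 452, 345 and 146 without induction on days 3, 4 and 5, and 563, 798 and 878 with it, higher by 1.10 on day 4.

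Claudin and junction genes on this list were higher by less than 2-fold. Cldn7 measured 631 untreated and 1228 induced (0.91), Cldn4 62.2 untreated and 156 induced (0.87), Cldn6 1072 untreated and 1822 induced (0.74) and the tight junction gene Ocln 193 untreated and 379 induced (0.82). Among regulators, Grhl2, a factor that keeps epithelia closed, stood at 0.78, and the splicing factors Esrp2 and Esrp1 at 0.74 and 0.41. Epcam, a surface molecule, measured 2274 untreated and 3208 induced (0.49). The keratins Krt8 (0.35), Krt18 (0.49) and Krt19 (0.62) were higher too. On day 3, 30 of the 34 lay above zero, and on day 5, 33 did, with a median of 1.21. Of all genes counted, 48.2% lay below zero on day 3 and 46.7% on day 5. The member below zero on day 5 was Pard6b (-0.89). At least 2-fold higher on day 5 were 20 of the 34, against 1.97% of all genes counted. In untreated cultures 14 of the 34 were at least 2-fold lower on day 5 than on day 3, against 4.86% of all genes counted.

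The other genes at least 2-fold higher on day 4 were few. Slc40a1, the iron exporter ferroportin, measured 391.6, 261 and 210.3 in the untreated culture and 528, 635 and 681 in the induced one across the 3 days, higher in the induced culture on each day. Anxa1, a membrane-binding annexin, measured 181, 183 and 163 untreated against 244, 451 and 445 induced, in day order. Its untreated values were nearly constant, and the day 4 difference was 1.11. The uncharacterized 2610528J11Rik measured 15.7 untreated and 135 induced (1.49), the untreated value below background. Myo5b, a motor of recycling vesicles in epithelia, measured 92.7, 45.1 and 35.5 without induction on days 3, 4 and 5, and 39.0, 140.2 and 50.5 with it, with the induced value lower on day 3 (-0.68) and the other 2 days above zero. Of the 8, 6 were also at least 2-fold higher on day 5, against 1.97% of all genes counted. Without induction, 4 of the 8 were at least 2-fold lower on day 5 than on day 3, against 4.86%.

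Promoters of epithelial genes often hold the E-box CACCTG, the motif that Zeb and Snail factors bind. It was searched on both strands in RefSeq windows of 300 bases, 250 before and 50 after each start (GRCm38.p6). Of 27 promoters found for 23 of the epithelial genes, 22 held it (81.5%), against 17.6% of the 10455 promoters of genes counted and 20.2% of all 32851. Of 45 promoters found for 38 of the lower genes, 7 held it (15.6%). Of 6 promoters found for the higher genes, 4 held it, and those of Anxa1 and Hprt did not. The LEF/TCF motif CTTTGA, which partners of beta-catenin bind, was in 10 of the 45 (22.2%), against 11.3% of promoters of genes counted and 5257 of all 32851. The motifs do not overlap each other in the sequences shown. A match is a description and not evidence of binding. The upstream 250 bases of 3 promoters of higher genes and of Mesp1 are given as examples that hold a motif. Mesp1 is a lower gene that holds both motifs. All are on the minus strand, with the motifs in capitals.
Tmem30b (chr12:73546396-73546645): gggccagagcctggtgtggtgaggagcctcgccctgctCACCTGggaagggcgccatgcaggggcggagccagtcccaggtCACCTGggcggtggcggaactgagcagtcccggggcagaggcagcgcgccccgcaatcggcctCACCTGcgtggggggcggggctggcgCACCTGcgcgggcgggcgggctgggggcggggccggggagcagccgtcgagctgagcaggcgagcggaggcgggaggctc
Ap1m2 (chr9:21312334-21312583): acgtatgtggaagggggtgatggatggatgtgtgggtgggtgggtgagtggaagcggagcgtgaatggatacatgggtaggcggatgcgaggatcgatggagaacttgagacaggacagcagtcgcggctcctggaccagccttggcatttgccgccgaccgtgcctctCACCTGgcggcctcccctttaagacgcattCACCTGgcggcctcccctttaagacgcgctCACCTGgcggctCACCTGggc
Galnt3 (chr2:66124794-66125043): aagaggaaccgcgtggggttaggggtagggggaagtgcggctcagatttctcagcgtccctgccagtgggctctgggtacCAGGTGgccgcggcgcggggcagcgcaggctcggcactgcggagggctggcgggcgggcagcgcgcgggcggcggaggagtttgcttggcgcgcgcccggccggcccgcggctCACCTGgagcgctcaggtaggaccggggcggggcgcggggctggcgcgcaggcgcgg
Mesp1 (chr7:79793591-79793840): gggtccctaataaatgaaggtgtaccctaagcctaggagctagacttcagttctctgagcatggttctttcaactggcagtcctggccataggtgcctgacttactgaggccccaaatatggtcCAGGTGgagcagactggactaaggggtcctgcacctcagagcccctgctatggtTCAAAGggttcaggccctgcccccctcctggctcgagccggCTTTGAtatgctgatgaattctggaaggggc
Tmem30b and Ap1m2 each hold 4 copies of the E-box and Galnt3 2 in this stretch. Mesp1 holds 1 E-box and 2 LEF/TCF motifs.

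Pluripotency genes were near level on day 4. Of 9 core genes none passed 2-fold, and the median was 0.10. Pou5f1, Oct4, measured 4560.00 untreated and 4751 induced (0.06), Nanog 3181 untreated and 3523 induced (0.15) and Sox2 2928 untreated and 3470.2 induced (0.24). The members furthest above zero were Utf1 (531 untreated and 1024 induced, 0.89) and Foxd3 (105 untreated and 216 induced, 0.78), whose untreated values were far lower than on day 3. Naive ES cell genes had a median of -0.01, with Zfp42, Rex1, at 763 untreated and 645 induced (-0.23) and Dppa2 and Dppa4 at -0.03 and 0.29. Their 1 member past 2-fold was Tbx3. Of 10 primitive ectoderm genes, 9 lay above zero and none passed 2-fold. Sox3 (141 untreated and 285 induced, 0.81) and Pou3f1 (1024 untreated and 1637 induced, 0.65) led, while Fgf5 measured 2746 untreated and 2833 induced (0.04), Otx2 stood at 0.25 and Zic5 at 0.28. On day 5 this list's median was 1.57.

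None of the 50 lower genes was 2-fold apart on day 3, and most were within 2-fold again on day 5. On day 3 they ranged from -0.32 (Dlc1) to 0.37 (Tgfb2), with a median of -0.09. For 19 of the 50, both day 3 values were below background. A 2-fold difference cannot arise there on this scale, so those genes could not have shown one. At that time 1 of the genes counted was at least 2-fold lower (0.0100%) and 1 higher (0.0100%). On day 5, 11 of the 50 (22%) were still at least 2-fold lower, which is 7.24% of the 152 genes lower on that day (1.52%). Those 11 were Nrp1, Igfbp4, Cdh11, Rgs5, Msx1, Etv2, Bmp2, Msx2, Hoxb2, Asb4 and Tgfb2. Another 38 were within 2-fold, 22 of them below zero and 16 above. Cer1 alone was among the 197 genes higher on day 5 (1.97%). The day 5 pair shares no array with the day 4 pair, but whether it came from separate cultures is not stated in the sources used here.

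**Figure D4:**
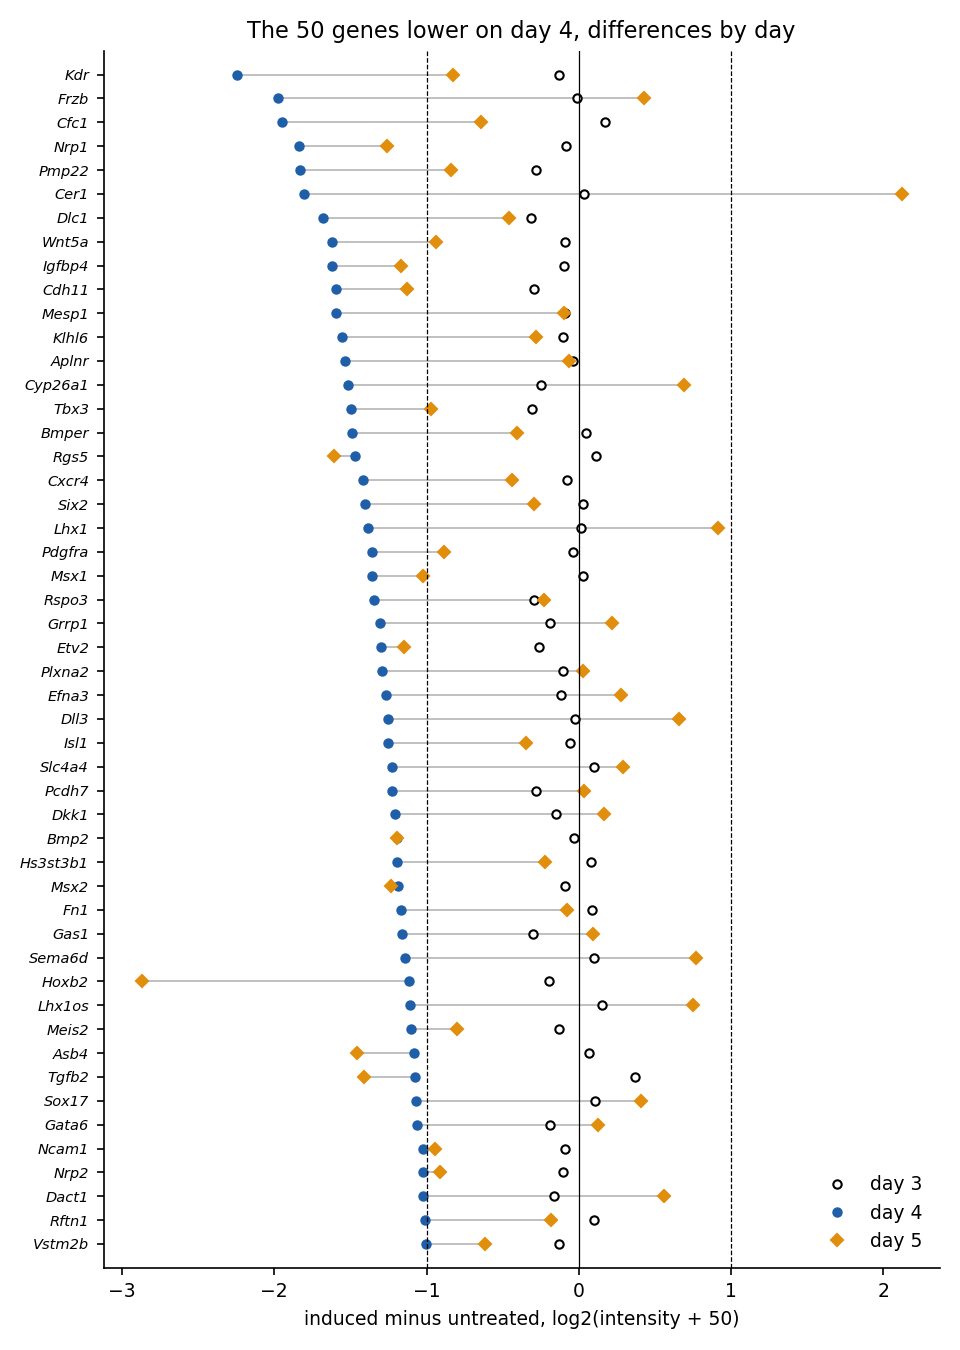
Differences, induced minus untreated on the log2(intensity + 50) scale (horizontal axis), of the 50 lower genes (rows, ordered by day 4) on day 3 (open circles), day 4 (blue circles) and day 5 (orange diamonds), 1 array per treatment and day; dashed lines are 2-fold and grey bars join days 4 and 5. Day 3 values lie near zero, while day 5 values run from -2.87 for Hoxb2 to 2.12 for Cer1. For 19 of the genes both day 3 intensities were below background.

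The lower genes were largely those that come on in the untreated culture between days 3 and 5, a comparison of 2 arrays that the day 4 difference does not use. Of the 50, 49 (98%) were at least 2-fold higher on day 5 than on day 3 without induction, where 593 genes in all were (5.93%). The exception was Dact1 (0.68), and the median was 3.56. Of the 593, 49 (8.26%) were at least 2-fold lower on day 4, 74.4% lay below zero and the median was -0.19. The 486 genes at least 2-fold lower on day 5 (4.86%) had a median day 4 difference of 0.20, with 15.8% below zero, and the 8918 other genes one of 0.02, with 45.7% below zero.

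**Figure D5:**
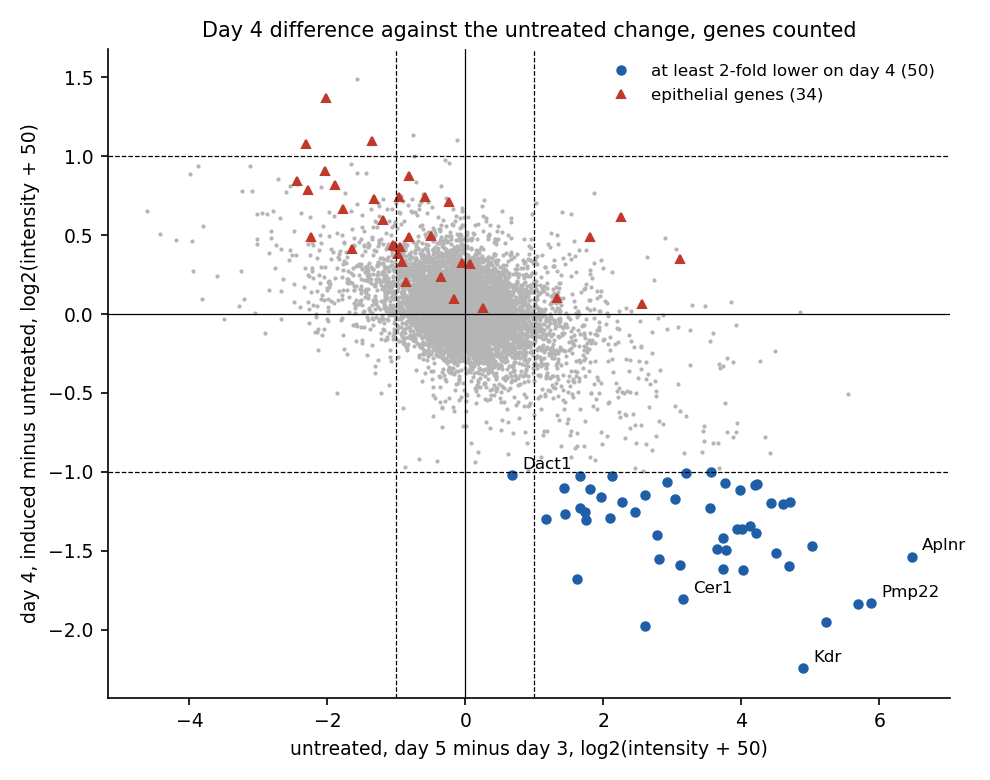
Each point is a gene counted, with its change from day 3 to day 5 in the untreated culture on the horizontal axis and its day 4 difference, induced minus untreated, on the vertical axis, both on the log2(intensity + 50) scale; Hprt is left out for scale and dashed lines are 2-fold. The lower genes (blue circles) lie to the right, with untreated changes of 0.68 (Dact1) to 6.47 (Aplnr), and the 34 epithelial genes (red triangles) lie above zero.

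The induced culture also reached these genes. From day 3 to day 5, 47 of the 50 were at least 2-fold higher with induction, with a median of 3.07, where 467 of all genes counted were (4.67%). In 36 of the 50 the induced day 5 value was at or above the untreated day 4 value, one of the values by which the genes were chosen. For 10 genes (Frzb, Cer1, Lhx1, Grrp1, Plxna2, Efna3, Dll3, Slc4a4, Gas1 and Dact1) the untreated value was higher on day 4 than on day 5. All 10 stood above zero on day 5, a count that uses the same untreated day 5 values as the choice of the 10.

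Other probe sets of the same genes, which share the arrays and the RNA, gave a further reading. Of the 50 lower genes, 33 had other probe sets, and 46 of these, in 30 genes, exceeded background on day 4. Of the 46, 43 lay on the same side, 20 of them at least 2-fold, with a median of -0.96. Within a gene the day 4 difference had a median SD among probe sets of 0.09 over 5042 genes. The 3 on the opposite side belonged to Hs3st3b1 and Sema6d. Some on the same side were nearly level, as for Nrp2 (130 untreated and 118 induced, -0.10) and Pdgfra (52.4 untreated and 50.9 induced, -0.02). Others were small, as for Isl1 (-0.24) and Msx1 (-0.27). For the higher genes only 3 others were above background, and 2 lay on the same side.

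In the gene families taken by symbol, few members were past 2-fold. Of 10 Bmp genes Bmp2 and Bmper were lower, and the median was -0.28. Of 6 Hox genes Hoxb2 was lower, of 11 Sox genes Sox17, and of 20 Fox genes none, with Foxd3 at 0.78 and Foxn2 at -0.48. All 4 Gata genes lay below zero, with 1 past 2-fold. Of 12 collagen and 13 integrin genes none passed 2-fold, and all 4 laminin chain genes lay above zero. Of 8 claudins, 7 lay above zero, and among 9 Cdh genes Cdh11 stood at -1.59 and P-cadherin, Cdh3, at 0.71. Of 14 Eph and ephrin genes Efna3 was lower, and Epha4 stood at -0.77. Of 13 semaphorins Sema6d was lower, and Sema3c stood at 0.95.

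Markers of other cell types and stress lists are given beside these values. The 13 extraembryonic endoderm markers summed to 5038 untreated and 5397 induced on day 4, with Afp, Apoa1, Apoa4 and Hnf4a below background on both. Most of that sum was Lamb1 (3239.8 untreated and 3269 induced). Of the 8 counted, 7 lay above zero, as the epithelial genes did, with a median of 0.19, Dab2 at 0.43 and Cited1 at 0.42. The 8 feeder fibroblast markers summed to 179.5 and 211, with Prrx1, Twist2, Thy1, Lum and Postn below background, and the 7 trophoblast markers to 278 and 255, with Elf5, Gata3, Krt7, Ascl2 and Tpbpa below it. Neuroectoderm markers summed to 3638 and 3261, with 9 of 18, among them Sox1 and Pax6, below background. Most of that sum was Sox11 (2403 untreated and 2026 induced). Of the 9 counted, 7 lay below zero and 2 above, from Fabp7 (-0.89) to Sox3 (0.81). Germ cell markers summed to 1578 and 1550, with Prdm14 below background. Medians were -0.02 for p53 genes and 0.14 for ATF4 stress genes. All 9 hypoxia and glycolysis genes lay above zero on day 4, where 45.9% of all genes counted lay below it. Their median was 0.25, led by Bnip3 (1975 untreated and 3038 induced, 0.61). On day 5, 8 of the 9 lay below zero, against 46.7% of all genes counted, with a median of -0.50 and Bnip3 at -0.50. The part of these marker and stress lists in the differences was not tested.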

How the data were processed

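RNA of embryoid bodies, 1 sample for each of 2 treatments on 3 days, was hybridised to Affymetrix MOE430 2.0 arrays. Whether the days of a treatment came from 1 culture or from separate cultures is not stated in the sources used here. The deposited values are linear intensities that the authors made with DNA-Chip Analyzer, one per probe set. From them, log2(intensity + 50) was computed, and of 45037 probe sets the 34945 with 1 gene symbol were used, 932 having several and 9160 none. Each gene was read from its brightest probe set, by the mean of all 6 arrays. A gene was counted if its highest value reached 80.1, the median of all gene values. Groups came from the labels. Day 4 differences were compared with a 2-fold limit and given no test. Lists of genes (346 of 361 members matched) and the comparison were chosen with earlier results of these data known, and the study picked some of these genes on these samples. Of the study's own genes, 8 of 27 were at least 2-fold lower and none higher on day 4, with a median of -0.31, which is not independent evidence. Named were the 15 genes with the largest difference each way, up to 6 members of each list, all counted members of the streak, surface and lateral mesoderm lists and of the study's own genes, Hprt and up to 3 members of 19 symbol families. The remaining lower genes and some comparison genes were named after their values were seen. Alternatives were the pseudocount, filter, probe set choice, scaling and threshold. The steps were tested on simulated data. Python 3.11.15, pandas 2.3.3, numpy 2.4.6 and matplotlib 3.10.9 were used.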

Additional observations from a re-analysis of the deposited data

Results flagged for a closer look

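Cer1 stood out because its 2 cultures were in opposite order on days 4 and 5. It was lower with induction on day 4 (-1.80 on the log2(intensity + 50) scale) and higher on day 5 (2.12), so the day 5 difference exceeded the day 4 difference by 3.93. With 1 array per treatment and day this was not tested.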

How the results depend on the processing

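No paired analysis was possible because each day 4 group had 1 array, and for the same reason no array could be left out. A fit over the 3 days with day as a block would give the treatment difference averaged over days and was not made. Of 223 list medians recomputed, 199 moved by less than 0.09, the median SD among probe sets of a gene, and 24 by more. Of all 223, 14 had the other sign. Of 1926 values of named genes, 313 moved by more and 30 had the other sign. The counts of 50 lower and 8 higher genes were 50 and 7 with quantile normalization and 51 and 7 with median centring. They became 75 and 21 with a pseudocount of 16, 35 and 6 with 100, 30 and 4 with the mean of all probe sets, and 139 and 103 at 1.5-fold, so the share of lower genes among those past the limit went from 86.2% to 78.1% with a pseudocount of 16 and 57.4% at 1.5-fold. With a pseudocount of 16 the medians were -0.40 for BMP, -0.47 for EMT repressors, -0.39 for blood, -1.16 for lateral and -1.43 for surface genes. With 100 they were -0.43 for lateral, -1.03 for surface, -0.22 for the study's own genes and -0.23 for trophoblast. The mean of all probe sets gave -0.28 for Wnt, -0.079 for blood, -0.30 for lateral, -0.81 for surface and 0.057 for retinoic acid genes. Without a filter Wnt was at -0.31, lateral at -0.32, paraxial at 0.0215, retinoic acid at 0.057 and trophoblast at 0.094. With a filter on the day 4 mean, anterior streak was at -0.82, blood at -0.55, germ cell at 0.16, lateral at -1.22 and surface at -1.36. The cause of these shifts was not tested. Genes near the background of 36.8 are the least certain.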
